A study of Mus musculus with 14 samples.

Results

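Genes that mark the somatic cells of the testis were followed through mouse germline stem cells, the pluripotent lines derived from them and embryonic stem cells. The set held 9 genes, Wt1, Sox9, Amh, Star, Cyp11a1, Cyp17a1, Inha, Clu and Acta2, and every array probe whose gene symbol in the platform annotation was one of them was taken, which gave 12 of 25697 probes and 9 of 16593 named genes. Acta2 had 4 probes (ILMN_2693895, ILMN_2710353, ILMN_2710354 and ILMN_2923445, called probes 1 to 4 here) and each other gene 1. By the RefSeq gene table, Wt1 lies on chromosome 2, Sox9 on 11, Amh on 10, Star on 8, Cyp11a1 on 9, Inha on 1, Clu on 14, and Cyp17a1 and Acta2 on 19. Of the 12 probes, 7 passed the filter for testing (a detection p-value under 0.01 on at least 2 of the 14 arrays), as did 13034 of all probes.

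The study used 14 samples, each on an Illumina mouse-8 v2 array of its own. The germline-derived pluripotent stem cells (gPS), described as clonal, comprised 3 lines from the OG2 background, which carries an Oct4-GFP transgene on C57BL6, and 3 from OG2-ROSA, which carries Oct4-GFP and LacZ transgenes on a cross of C57BL6 and 129sv. The germline stem cells (GSC), labelled unipotent, comprised 3 OG2 and 3 OG2-ROSA lines with those same transgenes and strains. Embryonic stem cells (ESC), of strain C57BL6 with no transgene given, were measured on 2 arrays, which may be technical duplicates, so p-values measure the spread between these samples only. Strain and transgene cannot be told apart between OG2-ROSA and OG2. Mean signal was 308 to 579.9 on gPS, 614 to 639.5 on GSC and 584 to 622 on ESC arrays, and 9638 to 10295, 10950 to 11610 and 9649 to 10121 probes were detected in those groups. Of 8 pluripotency genes all 8 passed the test as higher in gPS than in GSC, as did 30.4% of all tested probes. The largest rises were in L1td1 (log2 difference 7.66), Nanog (6.70), Esrrb (5.11) and Dppa5a (4.05). Of 8 spermatogonial genes 7 passed the test as lower, as did 33.5% of all tested probes. The largest falls were in Egr4 (log2 difference -7.78), Taf7l (-7.17), Dazl (-7.02) and Sohlh1 (-6.69), each detected on 1 or 2 of the 6 gPS arrays.

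The seminiferous tubules of the testis hold germ cells among Sertoli cells, which nurse them, and are wrapped in contractile peritubular cells, while Leydig cells between the tubules make testosterone. Wt1 and Sox9 encode transcription factors of Sertoli cells, Amh the hormone that Sertoli cells of the fetal and juvenile testis secrete, Inha the alpha subunit of inhibin and Clu the secreted chaperone clusterin. Star carries cholesterol to the inner mitochondrial membrane, where Cyp11a1 cleaves its side chain in the first step of steroid synthesis, and Cyp17a1 acts further down that path. Acta2 encodes smooth muscle alpha-actin of peritubular cells. None of these genes is restricted to the testis, and Clu and Acta2 in particular are active in many other cell types, fibroblasts among them.

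Promoter sequences are shown for Cyp11a1 and Inha, since the steroidogenic factor Nr5a1 binds sites built on the letters AGGTCA, and for Acta2, since serum response factor binds CArG boxes in smooth muscle genes. They come from RefSeq on build GRCm38.p6 and run from 250 bases before to 50 after an annotated start. Of the 9 genes, 3 had a promoter sequence, and Cyp11a1 had 2 annotated starts. Capitals mark AGGTCA or its reverse complement, or a CArG box with up to 1 of its 6 middle bases being G or C. The windows are chr9:58014702-58015001 on the plus strand for the downstream Cyp11a1 start, chr1:75507359-75507658 on the plus strand for Inha and chr19:34255324-34255623 on the minus strand for Acta2.
Cyp11a1: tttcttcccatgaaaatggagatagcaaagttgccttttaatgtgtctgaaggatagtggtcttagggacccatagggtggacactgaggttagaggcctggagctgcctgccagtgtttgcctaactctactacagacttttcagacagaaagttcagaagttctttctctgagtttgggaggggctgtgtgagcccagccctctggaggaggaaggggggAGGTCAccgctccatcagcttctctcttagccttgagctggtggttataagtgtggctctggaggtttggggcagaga
Inha: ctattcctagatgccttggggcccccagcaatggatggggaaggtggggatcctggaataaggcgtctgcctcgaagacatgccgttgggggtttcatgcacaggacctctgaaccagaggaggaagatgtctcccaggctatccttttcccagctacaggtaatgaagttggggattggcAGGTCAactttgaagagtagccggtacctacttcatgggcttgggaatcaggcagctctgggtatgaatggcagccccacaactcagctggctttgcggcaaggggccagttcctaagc
Acta2: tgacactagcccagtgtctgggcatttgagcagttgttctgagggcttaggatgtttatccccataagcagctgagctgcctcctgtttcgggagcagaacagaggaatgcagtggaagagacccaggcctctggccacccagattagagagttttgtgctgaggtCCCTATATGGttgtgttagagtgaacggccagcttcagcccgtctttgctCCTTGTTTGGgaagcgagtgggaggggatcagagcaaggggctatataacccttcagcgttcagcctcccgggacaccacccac
The AGGTCA match began 28 bases before the start in Cyp11a1 and 69 bases before it in Inha, and the window of the other Cyp11a1 start held none. The Acta2 window held CCCTATATGG and CCTTGTTTGG, which began 84 and 34 bases before the start and each have 1 middle base that is G or C. No exact CArG box lay in it. AGGTCA on either strand occurred in 16.26% of 32851 promoter windows of this length, the CArG box with up to 1 such base in 9.98% and the exact box in 1.63%. A match is a description of the letters, and binding was not measured here.

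The first question was on which arrays each marker was detected at all, as a measure of testis somatic cells carried along in the cultures. A probe was called detected at a detection p-value under 0.01, the p-value deposited beside each intensity. In all, 75 of the 168 pairs of probe and array were detections, and 53 of those belonged to the 4 Acta2 probes. Amh, Star, Cyp17a1 and Inha were detected on none of the 14 arrays, which was also true of 45.3% of all probes. The grid of detection calls shows that the arrays differed mainly in Wt1 and Clu.

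**Figure D1:**
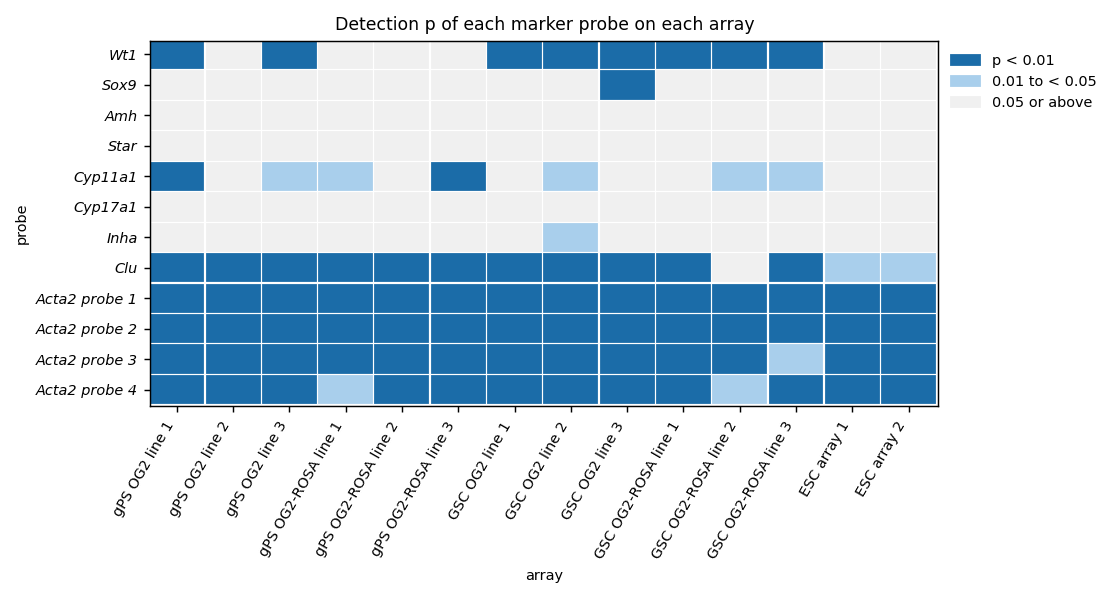
Detection p-value class of each of the 12 marker probes (rows) on each of the 14 arrays (columns: gPS lines, then GSC lines, then ESC). Dark cells are p under 0.01, light blue cells 0.01 to under 0.05 and grey cells 0.05 or above. Amh, Star, Cyp17a1 and Inha have no dark cell, and Wt1 is dark on all 6 GSC arrays, 2 gPS arrays and neither ESC array.

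For Amh the lowest detection p of any array was 0.385, and its log2 intensity stayed between 4.44 and 4.70. For Star the lowest was 0.193, at log2 intensities of 4.48 to 4.84, and for Cyp17a1 it was 0.128, at 4.52 to 5.08. These 3 genes, products of Sertoli cells in 1 case and of steroid-making cells in the others, gave no signal above the negative controls in any group. Inha came nearest to detection on GSC OG2 line 2, with a detection p-value of 0.0464, and its log2 intensity ran from 4.62 to 5.54. The lowest log2 intensity of a detected probe was 5.96 to 6.22 on gPS, 5.54 to 5.73 on GSC and 6.02 to 6.21 on ESC arrays, so a weak transcript could be missed more easily on gPS and ESC arrays.

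Sox9, which directs Sertoli cell differentiation, was detected on 1 array. Its log2 intensity was 4.42, 4.42 and 4.58 in gPS OG2 lines 1 to 3 and 4.50, 4.50 and 4.68 in gPS OG2-ROSA lines 1 to 3. It was 4.88, 4.66 and 5.65 in GSC OG2, 5.29, 4.80 and 4.73 in GSC OG2-ROSA and 4.46 and 4.53 in ESC. Only GSC OG2 line 3 passed detection, at a detection p-value of 0.00877, and the gPS and GSC values overlapped between 4.66 and 4.68. Detection on exactly 1 array occurred for 3.95% of all probes. Sox9 did not enter the test.

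Wt1 was the Sertoli marker with the clearest signal. Its log2 intensity was 6.38, 5.12 and 7.0 in gPS OG2 lines 1 to 3 and 5.10, 5.02 and 5.57 in gPS OG2-ROSA lines 1 to 3. In GSC it was 9.14, 10.30 and 8.04 in OG2 lines 1 to 3 and 8.03, 7.66 and 7.92 in OG2-ROSA lines 1 to 3, and the ESC arrays stood at 4.86 and 4.65. All 6 gPS values lay below all 6 GSC values, as in 20.4% of all tested probes, and above both ESC values, as in 6.36%. The highest array was GSC OG2 line 2. Detection was reached on gPS OG2 lines 1 and 3, on all 6 GSC arrays and on neither ESC array. Only 3.48% of all probes were detected on all 6 GSC arrays, on neither ESC array and on 2 or fewer gPS arrays.

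Wt1 fell in gPS relative to GSC, with a mean log2 intensity of 5.70 ± 0.82 in gPS and 8.52 ± 1.01 in GSC (SD, n = 6 each). The log2 difference was -2.82 (SE 0.36, limma adjusted p = 1.3e-05), a fitted size that depends on the background level, since 4 of the 6 gPS arrays did not detect the probe. It fell in both backgrounds. The log2 difference was -2.99 in OG2 (adjusted p = 0.0003), and in OG2-ROSA, where 0 of 3 gPS arrays detected it, the probe was at least 3.34-fold lower (adjusted p = 0.000716). Folds written as "at least" set the brighter group against the lowest signal of a detected probe on each undetected array. The 2 differences were not shown to differ (interaction 0.35 on the log2 scale, 95% interval -1.18 to 1.89, adjusted p = 0.971). In bulk RNA, fewer Wt1-positive cells and less Wt1 RNA per cell cannot be told apart.

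Against ESC, Wt1 was at least 5.27-fold higher in GSC (limma adjusted p = 4.44e-05, n = 6 and 2). The difference between gPS and ESC did not pass the test (log2 difference 0.94, 95% interval -0.14 to 2.03, adjusted p = 0.597). In order of mean log2 intensity the groups ran GSC OG2 (9.16), GSC OG2-ROSA (7.87), gPS OG2 (6.17), gPS OG2-ROSA (5.23) and ESC (4.76). Of the neighbours in this order, only GSC OG2-ROSA and gPS OG2 differed in the test (higher minus lower 1.70, adjusted p = 0.0127). Every GSC OG2-ROSA value lay below every GSC OG2 value, as in 4.25% of all tested probes, but the difference of -1.29 (95% interval -2.38 to -0.21) had an adjusted p of 1.

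**Figure D2:**
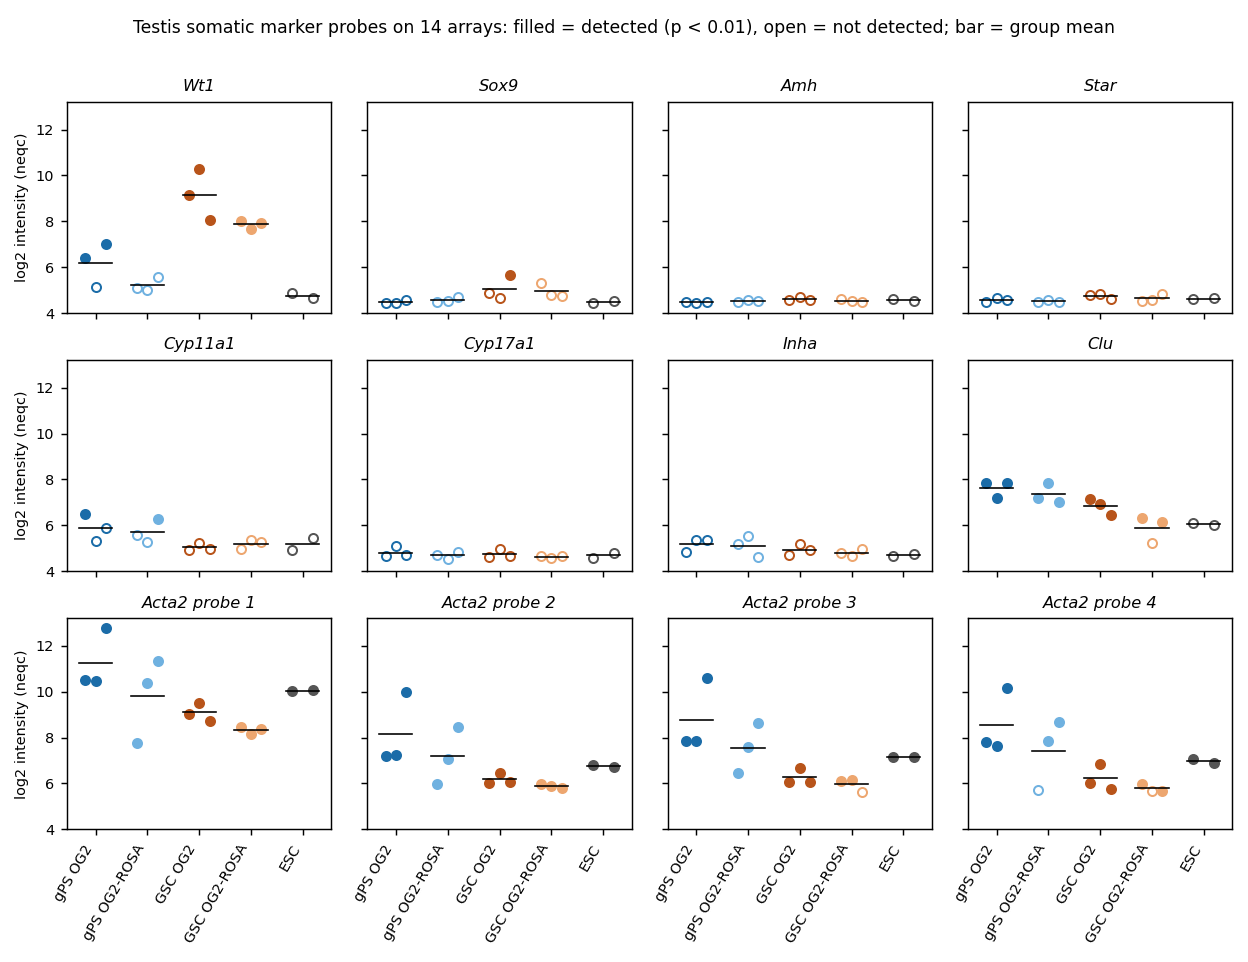
Log2 intensity (neqc-normalized, y axis) of the 12 marker probes, 1 panel per probe, in gPS OG2, gPS OG2-ROSA, GSC OG2, GSC OG2-ROSA and ESC. Each point is 1 array, filled where the probe was detected (p under 0.01) and open where not, and bars are group means. Wt1 stands between 7.66 and 10.30 on the GSC arrays and at 7.0 or below elsewhere, whereas Acta2 and Clu are highest on gPS arrays; levels of different probes are not comparable.

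Clu had the opposite direction. Its log2 intensity was 7.85, 7.19 and 7.83 in gPS OG2 lines 1 to 3 and 7.20, 7.83 and 7.01 in gPS OG2-ROSA lines 1 to 3. It was 7.15, 6.94 and 6.45 in GSC OG2, 6.33, 5.22 and 6.15 in GSC OG2-ROSA and 6.10 and 5.99 in ESC. The gPS values were the highest as a group, overlapping GSC only where gPS OG2-ROSA line 3 (7.01) lay below GSC OG2 line 1 (7.15). The probe was detected on all 6 gPS arrays, on 5 of 6 GSC arrays (not on OG2-ROSA line 2) and on neither ESC array. Detection on all 6 gPS arrays and neither ESC array occurred for 0.14% of all probes, and the ESC detection p-values of Clu were 0.0175 and 0.0113, close to the threshold.

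Clu rose in gPS relative to GSC, with means of 7.49 ± 0.39 in gPS and 6.38 ± 0.68 in GSC (log2 intensity, SD, n = 6 each; 2.16-fold, log2 difference 1.11, SE 0.23, limma adjusted p = 0.000764). In OG2-ROSA the log2 difference was 1.45 (adjusted p = 0.00206). It was 1.11 when the dimmest arrays, gPS OG2-ROSA lines 1 and 2, were left out (adjusted p = 0.0576). In OG2 it was 0.77 and did not pass (adjusted p = 0.06), whereas the 2 differences were not shown to differ (interaction 0.67, adjusted p = 0.94). Relative to ESC, gPS stood at least 2.58-fold higher, which missed the threshold (adjusted p = 0.0911), and GSC differed by 0.33 on the log2 scale (95% interval -0.36 to 1.02). The order of group means was gPS OG2 (7.62), gPS OG2-ROSA (7.35), GSC OG2 (6.85), ESC (6.05) and GSC OG2-ROSA (5.90), and no neighbours in it differed in the test.

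Cyp11a1 lay near the detection limit. Its log2 intensity was 6.51, 5.30 and 5.88 in gPS OG2 lines 1 to 3 and 5.60, 5.29 and 6.29 in gPS OG2-ROSA lines 1 to 3. It was 4.92, 5.22 and 4.97 in GSC OG2, 4.95, 5.34 and 5.27 in GSC OG2-ROSA and 4.91 and 5.45 in ESC. Detection was reached on gPS OG2 line 1 and gPS OG2-ROSA line 3 alone, a pattern of 2 gPS arrays only that 0.37% of all probes shared. At a detection p under 0.05 the probe passed on 7 arrays, among them 3 GSC arrays. The fitted log2 difference between gPS and GSC was 0.70 (SE 0.22, limma adjusted p = 0.0135), with 0.86 in OG2 (adjusted p = 0.0353) and 0.54 in OG2-ROSA (adjusted p = 0.17). Without gPS OG2 line 1 the value in OG2 was 0.55 (adjusted p = 0.158). The probe entered the test only through 2 of the 6 gPS arrays and was undetected on the other 4 and on all 6 GSC arrays, so no higher or lower level is read from these values. Star and Cyp17a1, which act before and after it in testosterone synthesis, were undetected on those same arrays.

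Acta2 was present in every group. Probe 1 had log2 intensities of 10.51, 10.49 and 12.78 in gPS OG2 lines 1 to 3 and 7.76, 10.39 and 11.33 in gPS OG2-ROSA lines 1 to 3. It had 9.05, 9.53 and 8.72 in GSC OG2, 8.47, 8.14 and 8.38 in GSC OG2-ROSA and 10.03 and 10.06 in ESC. Within gPS the values spanned both the highest array, OG2 line 3, and the lowest of all 14, OG2-ROSA line 1, while 5 of 6 gPS values lay above every GSC value. The 4 Acta2 probes ran closely together over the 14 arrays, with pairwise r of 0.944 to 0.987 in 6 pairs. Probes 1 and 2 were detected on all 14 arrays, probe 3 on 13 and probe 4 on 12, and 29.3% of all probes were detected on all 14.

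All 4 Acta2 probes rose in gPS relative to GSC. Probe 1 averaged 10.54 ± 1.64 in gPS and 8.72 ± 0.50 in GSC (log2 intensity, SD, n = 6 each), a 3.55-fold difference (log2 difference 1.83, SE 0.53, limma adjusted p = 0.00813). For probes 2, 3 and 4 the log2 differences were 1.63, 2.05 and 1.97, with adjusted p of 0.00788, 0.00145 and 0.00328. In OG2 the 4 differences were 2.16, 1.97, 2.49 and 2.31 and all passed (adjusted p 0.00594 to 0.0282). In OG2-ROSA they were 1.50, 1.29, 1.60 and 1.64 and none passed (adjusted p 0.0534 to 0.122). The interaction of probe 1 was -0.67 (adjusted p = 0.95), so the backgrounds were not shown to differ.

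Single lines weighed on these Acta2 results. Without gPS OG2 line 3 the log2 difference of probe 1 between gPS and GSC was 1.45 (limma adjusted p = 0.0207), and within OG2 it was 1.40 and no longer passed (adjusted p = 0.135). Within OG2, probe 3 alone kept its call without that line (log2 difference 1.58, adjusted p = 0.0169). Probe 1 rose within OG2-ROSA by 2.53 when line 1 of gPS OG2-ROSA, the lowest array, was left out (adjusted p = 0.00283). Every GSC value of all 4 probes lay below both ESC values, as 65.5% of all probes separated these groups in one direction or the other. The log2 differences of GSC against ESC were -1.33, -0.74, -1.03 and -0.98 for probes 1 to 4 and none passed (adjusted p 0.155 to 0.375). This depended on which arrays set the spread. With only GSC and ESC in the fit all 4 passed as lower in GSC (limma adjusted p 0.000655 to 0.0107), with array weights probes 1, 3 and 4 passed (adjusted p 0.0131 to 0.0441), and without gPS OG2-ROSA line 1 probe 1 passed (adjusted p = 0.0426).

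Between gPS and ESC the Acta2 differences were 0.50 to 1.02 on the log2 scale, and none passed (adjusted p 0.671 to 0.887). For probe 1 the 95% interval ran from -1.11 to 2.11, and its gPS values spanned 7.76 to 12.78. Group means of probe 1 ran from gPS OG2 (11.26) through ESC (10.04), gPS OG2-ROSA (9.83) and GSC OG2 (9.10) to GSC OG2-ROSA (8.33), and no neighbours in this order differed in the test.

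Of the 7 tested marker probes, which leave out the 5 of Sox9, Amh, Star, Cyp17a1 and Inha, 6 were called higher and 1 lower in gPS than in GSC, while 63.9% of all 13034 tested probes were called in that comparison, 30.4% higher and 33.5% lower. Their median log2 difference was 1.63, against -0.04 over all tested probes; 4 of the 6 probes called higher belonged to Acta2 and 1 was Cyp11a1, which had entered the test only through gPS arrays, so nothing about the markers as a set is read from this count or median. Only Wt1 had all gPS arrays on one side of all GSC arrays, which held for 38.5% of all tested probes. Within OG2, 6 of the 7 were called (49.4% of all probes), but 2 without gPS OG2 line 3, 2 without GSC OG2 line 3 and 3 without GSC OG2 line 1. Within OG2-ROSA, 2 were called (50.1% of all probes), but 6 without gPS OG2-ROSA line 1 and 5 without gPS OG2 line 3. In GSC against ESC, 1 probe, Wt1, was called (50.5% of all probes), and 2 without gPS OG2-ROSA line 1.

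**Figure D3:**
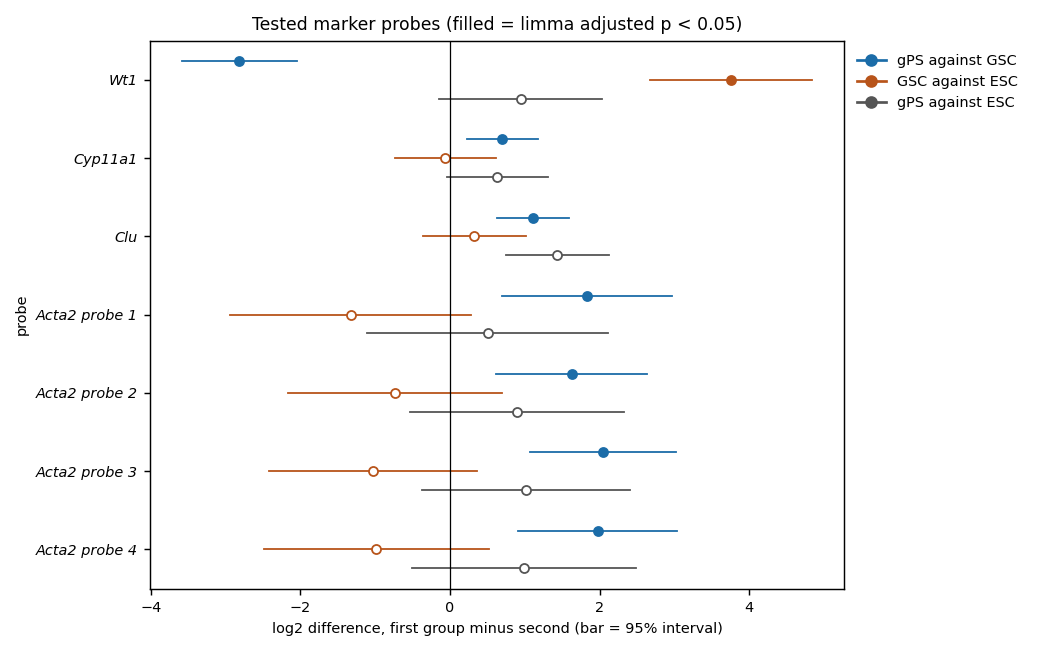
Log2 difference (x axis) with its 95% interval for the 7 tested marker probes in 3 comparisons: gPS minus GSC, GSC minus ESC and gPS minus ESC, drawn from top to bottom within each probe. Filled points passed limma's test at an adjusted p under 0.05 and open points did not. Wt1 has a difference of -2.82 for gPS against GSC, whereas the other 6 probes lie between 0.70 and 2.05.

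No marker probe was called in gPS against ESC, where limma called 0.345% of all probes and 9.74% had an unadjusted p under 0.05. Of the 7 marker probes, 1 had an unadjusted p under 0.05 there, and Clu was called without gPS OG2-ROSA line 3 (log2 difference 1.52, adjusted p = 0.0488). None was called in gPS OG2-ROSA against gPS OG2 (0 at an unadjusted p under 0.05), where 0.222% of all probes were, and 10.7% at an unadjusted p under 0.05. None was called in GSC OG2-ROSA against GSC OG2 or in the interaction, where 0.00767% of all probes were called in each (2 and 0 marker probes, and 3.91% and 5.01% of all probes, at an unadjusted p under 0.05). Those at an unadjusted p under 0.05 between the GSC backgrounds were Wt1 (unadjusted limma p 0.0231) and Clu, which was lower in OG2-ROSA by a log2 difference of -0.95 (unadjusted limma p 0.0107, adjusted p = 1).

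Other genes of the same cell types were set beside the markers. Of 22 Sertoli cell genes with a probe, 9 were detected on no array (45.3% of all probes were), among them Gata1, Gata4 and Nr5a1, transcription factors of gonadal somatic cells, the hormone receptor gene Fshr and Kitl, which encodes the ligand that Sertoli cells offer to germ cells. The rest of those 9 were Nr0b1, Cst9, Tsx and Lhx9, and a transcript too weak for its probe could go undetected. Of 11 tested, 3 rose and 5 fell in gPS against GSC, with a median log2 difference of -0.01, and these 8 of 11 calls lie near the 63.9% of all tested probes. After normalization the mean log2 intensity of the list was 5.73 to 5.92 in gPS, 5.55 to 5.86 in GSC and 5.78 to 5.92 in ESC. Rhox5, a homeobox gene of Sertoli cells, rose by 3.67 (adjusted p = 0.000849) and was detected on both ESC arrays, and Aard rose by 3.04 (adjusted p = 5.64e-06). Cldn11, the tight junction protein of the Sertoli barrier, was detected on all 6 GSC arrays and no other, so it entered the test through GSC arrays alone. It was at least 2.30-fold lower in gPS (limma adjusted p = 1.03e-06). Dmrt1, a transcription factor of Sertoli cells and spermatogonia alike, fell, with a fitted log2 difference of -2.58 (adjusted p = 3.03e-07) whose size depends on the background level, since 5 of the 6 gPS arrays did not detect it.

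Cldn11 had log2 intensities of 6.57, 6.63 and 8.29 in GSC OG2 lines 1 to 3 and 7.37, 6.96 and 7.94 in GSC OG2-ROSA lines 1 to 3. It was 1 of the 5 Sertoli cell genes that fell, and the others were not followed by array. The source of the Cldn11 signal was not tested. Of 8 Leydig cell genes with a probe, 6 were detected on no array (45.3% of all probes were). They were Insl3, Hsd3b1, Hsd3b6 and Hsd17b3, a peptide hormone and steroid enzymes, and Scarb1 and Fdx1. The 2 detected genes were Tspo (log2 difference -0.05, adjusted p = 0.806) and Cyb5a, an electron carrier with roles in many cells, which rose by 2.08 (adjusted p = 4.49e-06). The normalized mean of the Leydig list was 5.67 to 5.84 in gPS, 5.44 to 5.67 in GSC and 5.81 to 5.83 in ESC.

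Genes of other cell types that may be present in such cultures were set beside Wt1. Of 15 tested fibroblast genes 10 fell and 1 rose in gPS against GSC (median log2 difference -1.14; 63.9% of all tested probes were called), with Dcn at -4.38, Pdgfra at -3.21, Col3a1 at -2.58 and Col6a1 at -2.35. Of the 6 gPS arrays, 3 detected Dcn, 3 Col3a1 and 1 Pdgfra, so those sizes depend on the background level. The summed fibroblast signal was 3096 to 6597 in gPS, 6069 to 27853 in GSC and 3952 to 4129 in ESC (intensity before background correction). After normalization the mean log2 intensity of the list was 5.94 to 7.12 in gPS, 6.38 to 8.44 in GSC and 6.21 to 6.25 in ESC. Of 6 macrophage genes with a probe, none was detected on a gPS or ESC array, and the 3 tested entered through GSC arrays alone. Lyz2, a lysozyme of macrophages, was at least 26.3-fold lower in gPS, Adgre1 and Cd14 were detected on 3 and 2 of the 6 GSC arrays, too near the background for a fold. The summed macrophage signal was 505 to 751 in gPS, 1597 to 9295 in GSC and 722 to 760 in ESC, with normalized list means of 4.64 to 4.91, 5.70 to 6.81 and 4.78 to 4.83. Of 6 endothelial genes with a probe, 3 were detected on no array (45.3% of all probes were). The test took in 2, of which Pecam1, an adhesion molecule of endothelium and of pluripotent cells, rose by 2.55 (limma adjusted p = 0.000186). The summed endothelial signal was 661 to 1478 in gPS, 883 to 938 in GSC and 1105 to 1112 in ESC, with normalized list means of 5.15 to 6.27, 5.07 to 5.26 and 5.82 to 5.84. The part of these cells in the Wt1 difference was not tested.

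GSC OG2-ROSA line 2 stood lowest of the GSC arrays in fibroblast genes. On that array 10 of 18 fibroblast genes were detected, against 14 to 16 on the other 5. Its mean log2 intensity over these genes was 6.38, against 7.46 to 8.44 on the other 5. That mean lay above both ESC arrays (6.25 and 6.21) and within the range of the gPS arrays (5.94 to 7.12). Dcn on GSC OG2-ROSA line 2 was undetected (log2 intensity 5.68, against 10.84 to 13.58 on the other 5 GSC arrays) and Col3a1 was at 6.46, against 8.15 to 10.24. Wt1 on that array was 7.66, the lowest of its GSC values, beside 8.03 and 7.92 on OG2-ROSA lines 1 and 3, and Lyz2 was 11.04. GSC OG2 line 2 was highest of the GSC arrays in both, with a fibroblast mean of 8.44 and Wt1 at 10.30. GSC OG2 line 1 came next in both, at 8.21 and 9.14. Whether Wt1 follows the fibroblast genes was not tested. On gPS OG2 line 1, where Wt1 was detected at 6.38, Dcn and Col3a1 were undetected, at 5.17 each, and 6 of 18 fibroblast genes were detected. Dcn and Col3a1 were chosen here from the 4 fibroblast genes named above. Of the others, Pdgfra was detected on 7 of the 14 arrays and Col6a1, by any of its 3 probes, on all 14.

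**Figure D4:**
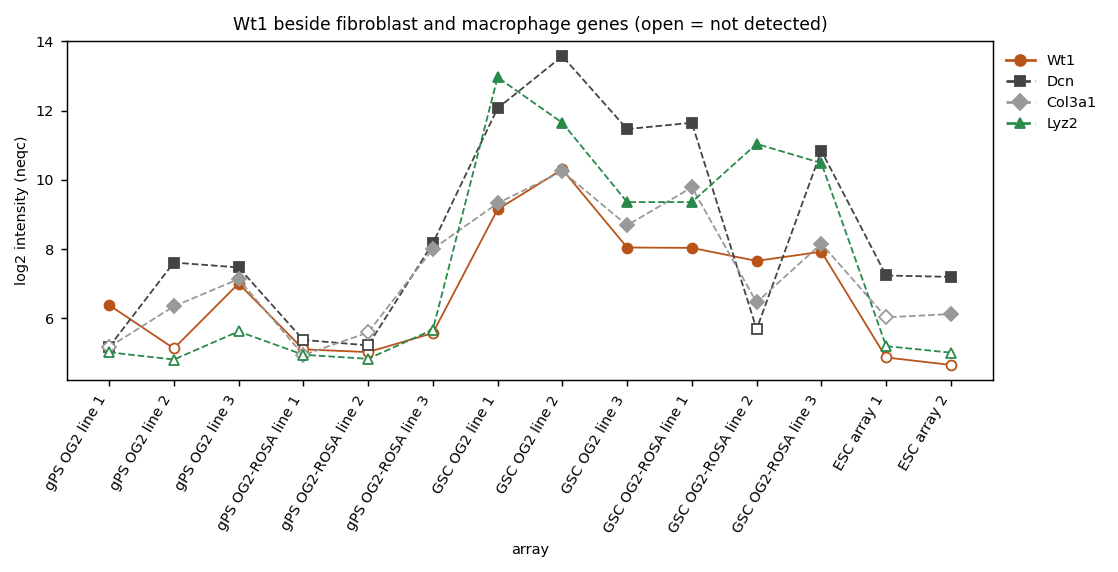
Log2 intensity (y axis) of Wt1, the fibroblast genes Dcn and Col3a1 and the macrophage gene Lyz2 on each array (x axis: gPS lines, GSC lines, ESC). Filled symbols are detected and open ones are not; lines only join the values of a probe, and levels of different probes are not comparable. Dcn is undetected on GSC OG2-ROSA line 2, where Wt1 has its lowest GSC value, 7.66.

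The genes whose log2 intensities followed Wt1 most closely over the 14 arrays were Cyth3 (r = 0.972), Pmp22 (0.970) and Slc7a2 (0.967), among 12271 probes with a gene symbol. Within the 6 GSC arrays the r of these genes was 0.951, 0.892 and 0.854. For Clu the closest were Loxl2 (r = 0.899), Fez1 (0.891) and Grwd1 (0.865). These values describe the 14 arrays, which fall into cell types that set much of each r, and no test was attached.

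Acta2 was set beside other smooth muscle genes. Of 11 with a probe, 4 were detected on no array (45.3% of all probes were), namely Myh11, Cnn1, Lmod1 and Myocd, contractile and regulatory genes of mature smooth muscle. Of 6 tested, 3 rose and 1 fell in gPS against GSC (median log2 difference 1.15), and these 4 of 6 calls lie near the 63.9% of all tested probes. Smtn, Tpm2 and Des, which encode cytoskeletal proteins, rose by 1.32, 1.23 and 1.08 (limma adjusted p 6.13e-05, 0.000965 and 0.000418), and Mylk, myosin light chain kinase, fell by 1.03 (adjusted p = 0.00116), with 1 of 6 gPS arrays detecting it. The summed signal of the list before background correction was 1151 to 3095 in gPS, 1778 to 2086 in GSC and 1813 to 1881 in ESC. After normalization its mean log2 intensity was 5.56 to 6.58 in gPS, 5.37 to 5.58 in GSC and 5.62 to 5.65 in ESC.

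The array with the highest Acta2, gPS OG2 line 3, was also highest in several of these genes. Tagln, which encodes the actin-binding protein transgelin, was detected on that array alone (log2 intensity 7.25, against 4.63 to 5.36 on the other 5 gPS arrays). Actg2, smooth muscle gamma-actin, was at 9.92 there, against 4.45 to 7.62 on the others, and Tpm2 at 9.73, against 7.97 to 9.08. On gPS OG2-ROSA line 1, the array with the lowest Acta2, Actg2 was undetected at 4.69 and Des was at 7.25. Fibroblast genes varied among these lines too. After normalization their mean log2 intensity was 5.97, 6.49 and 6.64 in gPS OG2 lines 1 to 3. It was 5.94, 6.52 and 7.12 in gPS OG2-ROSA lines 1 to 3. The lines with the highest and second highest Acta2 (OG2 line 3 and OG2-ROSA line 3) held the top values and the line with the lowest Acta2 the lowest. OG2 line 1, next highest in Acta2 probe 1, stood close to the lowest, at 5.97. Between the groups the directions were opposite: 10 of 15 tested fibroblast genes fell in gPS against GSC, where Acta2 rose. The part of fibroblasts or other cells in the Acta2 difference was not tested.

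**Figure D5:**
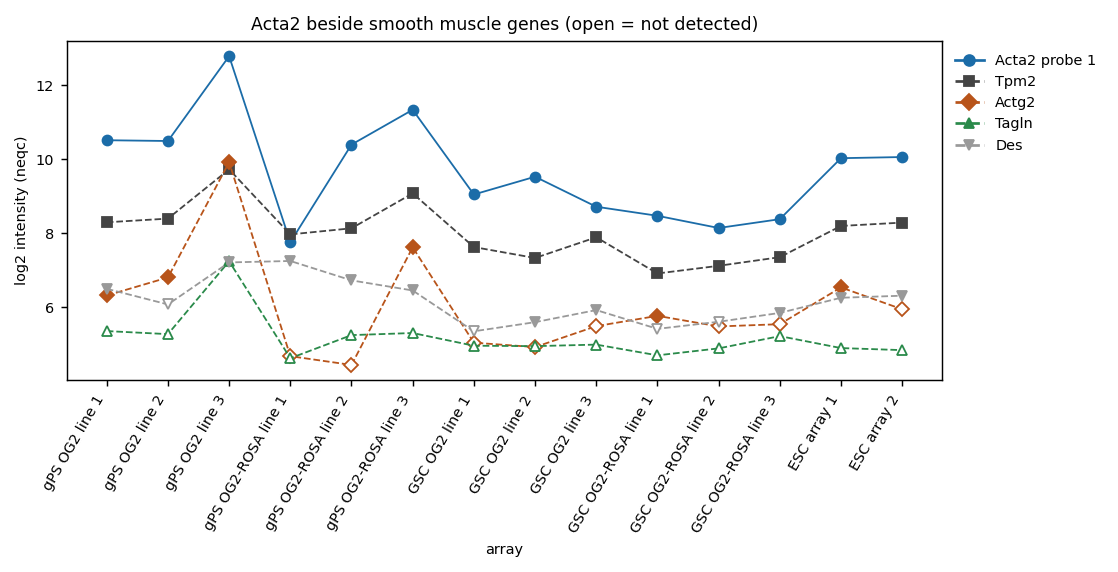
Log2 intensity (y axis) of Acta2 probe 1 and the smooth muscle genes Tpm2, Actg2, Tagln and Des on each array (x axis: gPS lines, GSC lines, ESC). Filled symbols are detected and open ones are not; lines only join the values of a probe, and levels of different probes are not comparable. Acta2, Tpm2, Actg2 and Tagln peak together on gPS OG2 line 3, at 12.78, 9.73, 9.92 and 7.25.

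By likeness over the 14 arrays, Fermt1, which encodes an adhesion protein of epithelia, came first for each of the 4 Acta2 probes (r = 0.930 for probe 1, up to 0.961 for probe 3). Vrtn (0.895) and Rap2b (0.893) followed for probe 1, and Tpm2 came second for probes 2 and 3 (r = 0.916 for both). Within the 6 gPS arrays Fermt1 and probe 1 gave r = 0.940, and within the 6 GSC arrays 0.385.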

How the data were processed

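RNA of 14 mouse samples was measured on 1 Illumina mouse-8 v2 array each. Per the file headers, the deposited table gives for each probe and array an intensity on a linear scale and a detection p-value against negative controls, and the intensity values had not been background-subtracted. BeadStudio 3.2, RMA and lumi are listed, with no role stated, per the submitters' processing notes. The authors' series values, deposited on a log2 scale (base inferred from the values), keep the ranks of the intensities and served as an alternative.

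Here limma 3.58.1 (R 4.3.3) applied neqc to the intensities: background by normexp from detection p-values with an offset of 16, then quantile normalization and log2. Probes detected at p under 0.01 on at least 2 of 14 arrays were tested, 13034 of 25697. The 14 arrays entered a single lmFit and eBayes model with a mean per group (5 groups). Benjamini-Hochberg adjustment ran over all tested probes, 0.05 was the threshold for a call, and every adjusted p given is limma's. The spread is shared by the groups. If the ESC arrays are technical duplicates, p-values against ESC are too small. The ESC arrays correlated at r = 0.992, no pair of arrays was identical, and the number of arrays limits the precision. Gene symbols came from the platform annotation, which gave 23978 probes 1 symbol.

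The members and the lists of other cell types were chosen with earlier results of these data known. All members are described. From each other list, up to 4 called genes with the largest change between gPS and GSC are named, at the probe with the highest mean. Tspo, Tagln, Actg2, the genes followed by array and the undetected genes fall outside that rule and were chosen after their values were seen. Genes of like pattern are the 3 with the highest Pearson r, for members detected on at least 7 arrays. The line numbers were not shown to pair the samples: of 6 pairs with the same number, 0 had correlated deviations (r over 0.1). With 3 lines per group this cannot show that lines of the same number have separate origins. On simulated data with 13034 probes, 67% of log2 changes of 1 and 100% of changes of 2 were called in gPS against GSC, 31% and 90% in GSC against ESC, and 41% and 88% in gPS against ESC. Only 100 probes per size of change were altered in each simulated comparison. These shares therefore do not carry over to comparisons in which many probes change. Alternatives covered background correction, scaling, the probe filter, the groups fitted, replicate blocks, array weights and left-out arrays.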

Additional observations from a re-analysis of the deposited data

Results flagged for a closer look

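The marker probes were searched for single arrays far from the rest of the 6 GSC or the 6 gPS arrays, by the gap to the nearest array as a share of the group's range (Dixon's ratio, read against its 95% critical value for 6 arrays). Chance passes it in about 1 in 20 groups. Acta2 probe 4 had a ratio of 0.702 on the GSC arrays, where GSC OG2 line 2 stood at a log2 intensity of 6.86 and the other 5 arrays between 5.68 and 6.03. Cyp17a1 had a ratio of 0.694 on the GSC arrays, where the same line stood at 4.95 and the others between 4.56 and 4.68, with the probe undetected on all of them. That line also had the highest Wt1 of all arrays, at 10.30. The cause was not tested.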

How the results depend on the processing

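Under 28 alternatives, the 56 differences of marker probes gave 1490 values, of which 0 reversed a called direction, 24 lost a call and 37 gained one. In gPS against GSC, 6 to 8 marker probes were called under all alternatives run, 7 in the report, and the log2 difference of Wt1 ran from -3.48 to -1.61. Within OG2, where 6 were called, 3 were called with no filter on dim probes and 2 without GSC OG2-ROSA line 2 and gPS OG2 line 3, and leaving out single arrays gave 2 to 7. Within OG2-ROSA, where 2 were called, leaving out single arrays gave 2 to 6, and leaving out gPS OG2-ROSA lines 1 and 2 gave 6. In GSC against ESC, where 1 was called, the count was 5 (Wt1 and the 4 Acta2 probes) with only the groups compared in the fit, 4 with array weights (Wt1 and 3 Acta2 probes), 2 without gPS OG2-ROSA lines 1 and 2, and 1 to 2 without single arrays. In gPS against ESC, where 0 were called, it was 1 with array weights and 0 to 1 without single arrays. The cause was not tested. With array weights, 796 of all probes were called in gPS against ESC, against 45 in the report, and 26 with a filter of 6 arrays. Median scaling moved the median log2 difference of all probes in gPS against GSC to -0.28, against -0.04, and the share of calls that were higher to 34.7%, against 47.6%. Under it Clu still rose, by 0.70, and Acta2 probe 1 by 1.59, while Wt1 fell by 2.97.

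With the line number as a replicate block, 7 marker probes were called in gPS against GSC, 6 within OG2 and 3 within OG2-ROSA, where Acta2 probe 3 gained a call (adjusted p = 0.0405). With background and line as pair in the replicate block, the counts were 7, 5 and 2, and Cyp11a1 lost its call within OG2 (adjusted p = 0.063). Detection at p under 0.05 gave 86 pairs of probe and array, against 75. Signals near the background limit what can be said of Sox9, Amh, Star, Cyp17a1, Inha and Cyp11a1.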
